A study of Mus musculus with 2 samples.

Results

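The genes examined here are 10 secreted regulators of bone morphogenetic protein (BMP) and activin signalling. They were chosen by symbol from the deposited feature list, with earlier results of these data known. They are the ligands Bmp2, Bmp4, Bmp6, Bmp3, Gdf10 and Inhba, the antagonists Grem1, Chrdl1 and Fst, and the follistatin-like gene Fstl1, which make up 10 of 31253 features. All 10 symbols matched 1 feature each, and 9 of the 10 had enough counts to be compared between libraries in at least 1 cell class. Their levels were measured by single-cell RNA sequencing on the BD Rhapsody platform in abdominal aorta with an aneurysm induced by porcine pancreatic elastase (PPE), which breaks down elastic fibres. C57BL/6J mice given PPE gave the WT library, the control. The other library (Gsdme-KO) came from mice with a global deletion of Gsdme that were also given PPE, so both groups are aneurysm models and no aorta without PPE was analysed here. Gsdme encodes gasdermin E, which forms pores in the plasma membrane once cleaved by caspase 3. The number, age and sex of the mice behind each library were not given in the sources used here.

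BMPs, growth and differentiation factors (GDFs) and activins are dimeric ligands of the TGF-beta superfamily. They bind pairs of type I and type II serine/threonine kinase receptors, after which BMP receptors phosphorylate SMAD1, SMAD5 and SMAD9 and activin receptors phosphorylate SMAD2 and SMAD3. Secreted antagonists such as gremlin, chordin-like proteins and follistatin bind the ligands and keep them from their receptors, and in the vessel wall this pathway is known for its part in endothelial quiescence, smooth muscle phenotype and calcification.

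The WT library held 7736 barcodes and 38988898 unique molecular identifiers (UMIs, the tags that mark captured transcripts), while Gsdme-KO had 9034 barcodes with 52532964 UMIs. After filtering, 7619 WT and 8783 Gsdme-KO cells remained, with medians of 3835 and 4060 UMIs per cell, and 65 of the kept barcodes occurred in both libraries. Clustering without the 10 genes or any other gene of the pathway gave 27 clusters, which were named from marker genes. Clusters 0 and 1 both detected 11 of 11 fibroblast markers. They are given by number, because cluster 0 had the pericyte marker Abcc9 and no fibroblast marker among its 10 leading genes, while 1 of 7 pericyte markers was detected over the clusters together. Cluster 0 was led by Mfap4, Sfrp1 and Cilp, and cluster 1 by Sema3c, Igfbp5 and Cd55 beside Bmp3. None of the 5 macrophage clusters had a macrophage marker among its leading genes, so these too are given by number. Gsdme itself was low, at 5.53 CPM (counts per 1000000 UMIs of the same cells) over all kept WT cells and 2.55 CPM in Gsdme-KO. Of the 16 classes and clusters compared, Gsdme was lower in Gsdme-KO in 12 and higher in 3, and stood at 0 in both libraries in 1. There was 1 library per group, so every difference below lacks replicates and stands untested. All intervals are 95% intervals for counting error only, and they describe these libraries and not the genotypes.

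The sequence just upstream of 3 of the genes is given because these genes marked different places in the aortic wall, namely fibroblast cluster 0 (Gdf10), smooth muscle, monocytes and neutrophils (Inhba) and endothelium (Bmp4). Each is the 250 bases before the RefSeq transcription start (GRCm38.p6), written 5′ to 3′ on the strand of the gene, at chr14:33923337-33923586 on the plus strand for Gdf10, chr13:16011601-16011850 on the plus strand for Inhba and chr14:46390670-46390919 on the minus strand for Bmp4. Capitals mark a TATAAA match.
Gdf10: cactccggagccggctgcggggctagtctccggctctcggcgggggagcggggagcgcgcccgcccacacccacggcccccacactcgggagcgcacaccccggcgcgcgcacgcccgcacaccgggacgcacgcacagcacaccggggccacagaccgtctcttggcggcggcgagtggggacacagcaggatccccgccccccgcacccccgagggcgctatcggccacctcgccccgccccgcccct
Inhba: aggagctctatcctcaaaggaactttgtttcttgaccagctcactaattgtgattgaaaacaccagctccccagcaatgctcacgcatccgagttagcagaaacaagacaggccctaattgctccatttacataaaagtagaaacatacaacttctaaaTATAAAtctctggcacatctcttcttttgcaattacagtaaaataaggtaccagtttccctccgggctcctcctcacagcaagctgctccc
Bmp4: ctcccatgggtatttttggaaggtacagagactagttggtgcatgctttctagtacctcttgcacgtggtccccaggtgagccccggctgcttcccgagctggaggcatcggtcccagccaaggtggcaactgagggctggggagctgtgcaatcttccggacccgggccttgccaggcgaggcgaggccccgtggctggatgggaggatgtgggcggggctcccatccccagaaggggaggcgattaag

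The windows differ in base composition. G and C make up 78.8% of the Gdf10 window, 63.2% of that of Bmp4 and 43.2% of that of Inhba, against a median of 52.4% over all 32851 windows in the RefSeq table. A window was held for 6 of the 10 genes, and 5 motifs were searched in these on both strands. TATAAA occurs in 12.4% of all windows. The AP-1 motif, spelled TGANTCA, occurs in 6.75%. CCAAT boxes, searched as those 5 letters, occur in 33.8%. A GC-rich SMAD motif, GGCGCC, occurs in 9.59%, and the palindromic SMAD motif GTCTAGAC in 0.167%. Inhba held TATAAA 91 bases before the start, and Grem1 held CCAAT at 69 bases and GGCGCC at 78 bases before it. The windows of Bmp4, Bmp6, Gdf10 and Fstl1 held none of the 5 motifs.

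Before any comparison of genotypes, several of the 10 genes had their UMIs concentrated in particular cell types in both libraries. Fibroblast clusters held 92.4% of all Bmp3 UMIs in WT and 92.9% in Gsdme-KO, 94.2% and 92.3% of those of Gdf10, 88.4% and 87.4% of those of Chrdl1, 86.8% and 88.7% of those of Fst, and 88.1% and 88.6% of those of Fstl1. Macrophage cluster 11 held 64.0% and 63.8% of the Bmp2 UMIs, and endothelial-like cells held 49.6% and 47.8% of those of Bmp4. Inhba was spread over smooth muscle, myeloid and fibroblast cells, and Grem1 was close to undetected. Over all kept cells, where differing cell mixes enter, 4 of the 9 genes passing the floors were called higher in Gsdme-KO and 0 lower, against 4.87% and 4.31% of all genes (the rule for a call is given with Bmp2). The map of levels by class and library shows these places in CPM.

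**Figure D1:**
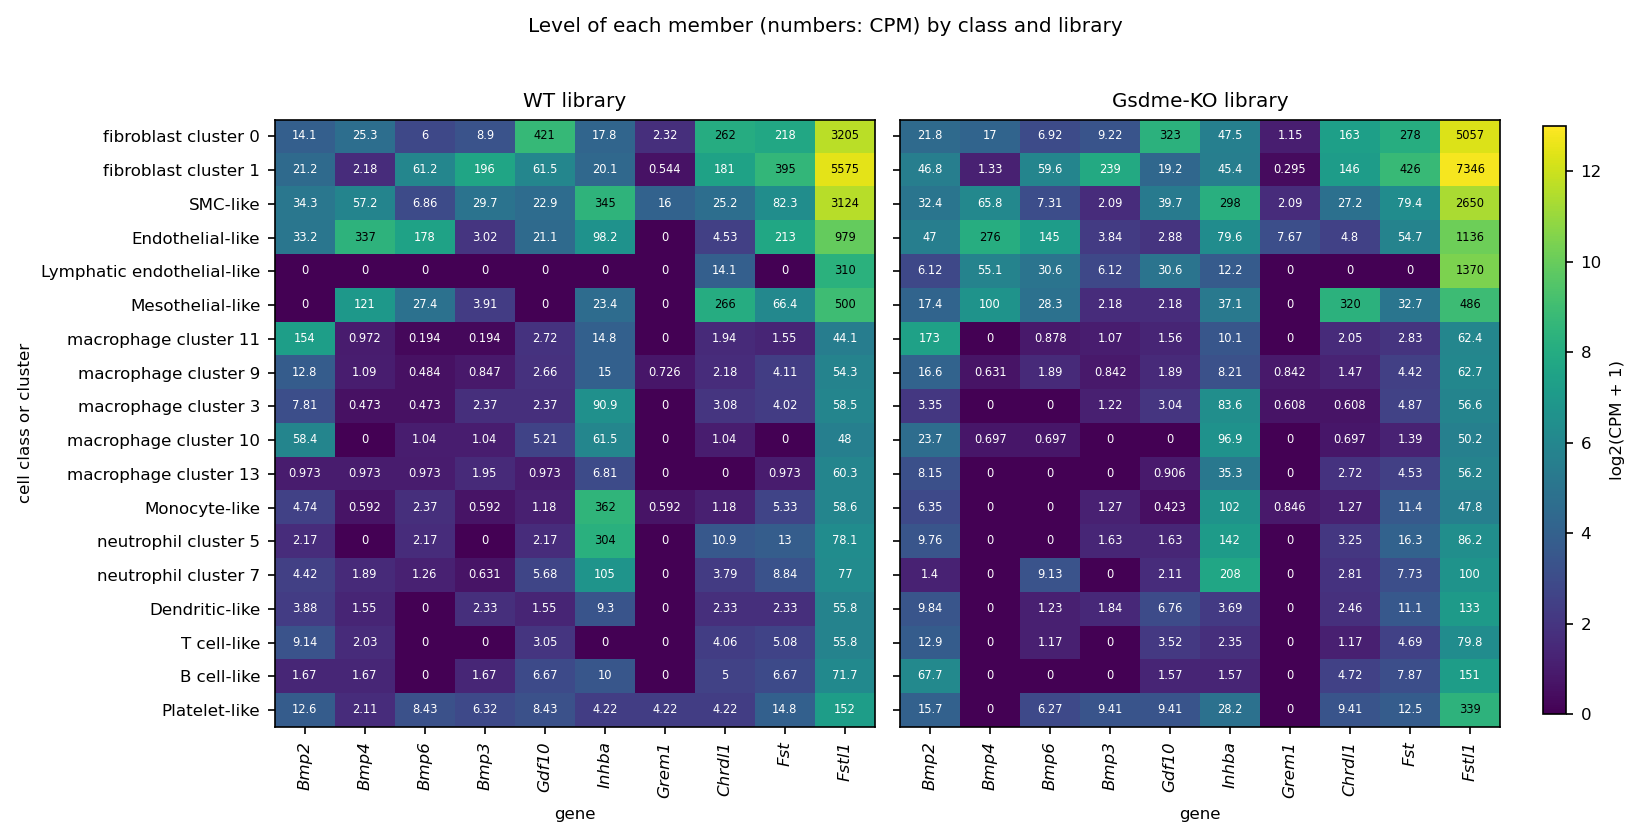
Level of each gene (columns) in each cell class or cluster (rows) for the WT library (left) and the Gsdme-KO library (right); colour is log2(CPM + 1) and the printed numbers are CPM. Fstl1 stood highest in fibroblast cluster 1 (5575 and 7346 CPM), Bmp2 in macrophage cluster 11 (154 and 173 CPM) and Bmp4 in endothelial-like cells (337 and 276 CPM). Lymphatic endothelial-like and mesothelial-like cells numbered 25 and 43 in WT and 32 and 58 in Gsdme-KO.

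Among the ligands, Bmp2, which acts through SMAD1 and SMAD5 and drives osteogenic programmes, was highest in 1 macrophage cluster. Macrophage cluster 11, whose leading genes included Lyve1, Folr2 and Cd163, held 154 CPM in WT (Poisson interval 144 to 165, 794 UMIs in 664 cells) against 173 CPM in Gsdme-KO (165 to 181, 1768 UMIs in 1041 cells). Of its cells 39.5% in WT and 42.7% in Gsdme-KO had a Bmp2 UMI. In T cell-like cells the shares were 0.949% and 1.74%, where the median depth was 2711 and 2644 UMIs, with 7454 and 8981 in the cluster. No other class of at least 25 cells in each library had an interval reaching that of cluster 11. Next came unnamed cluster 8 (35.7 and 81.0 CPM), which detected 9 macrophage markers at a median of 904 UMIs per cell. Its Gsdme-KO to WT ratio was 2.27 (1.23 to 4.45), for which no alternative processing was run. Below it were, among others, macrophage cluster 10 (58.4 and 23.7 CPM), endothelial-like cells (33.2 and 47.0 CPM), fibroblast cluster 1 (21.2 and 46.8 CPM) and smooth muscle cell (SMC)-like cells (34.3 and 32.4 CPM). No neighbours in that lower order were clear of each other in both libraries.

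Within macrophage cluster 11 the Gsdme-KO to WT ratio of Bmp2 was 1.12 (1.03 to 1.22), under the 1.5-fold used here to call a difference. A call needed a ratio of at least 1.5 or at most 1/1.5, at least 30 UMIs over both libraries and a mean of the 2 libraries of at least 5 CPM. Thinning all cells to 1000 UMIs gave 0.951. In macrophage cluster 3, led by Arg1, Gpnmb and Spp1, Bmp2 stood at 7.81 and 3.35 CPM, a ratio of 0.428 (0.195 to 0.869) from 33 and 11 UMIs in 8 and 6 cells. The corresponding ratio in macrophage cluster 10 was 0.406 (0.257 to 0.633). In cluster 3, 3.70% of the 9160 genes passing the floors were called higher in Gsdme-KO and 6.68% lower, and in cluster 10 9.94% and 9.89% of 6784 genes. Neither ratio held its direction under every alternative. In cluster 10 the ratio was 1.14 at Leiden resolution 2, and in cluster 3 it was 1.17 after thinning, from 4 UMIs in all.

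B cell-like cells showed the most uneven Bmp2 counts. There was 1 UMI in 220 WT cells and 43 UMIs in 185 Gsdme-KO cells, a ratio of 40.6 with a counting interval from 6.90 to 1639, and the 43 UMIs lay in 9 cells, 18 of them in a single cell. Macrophage markers were also higher in these Gsdme-KO cells. Their median level was 10.6% of that in macrophage cluster 11 in WT and 19.0% in Gsdme-KO. Bmp2 itself stood at 1.08% of its cluster 11 level in WT, below the lowest marker (2.94%). In Gsdme-KO it stood at 39.2%, above the highest marker (23.9%). The part of macrophage transcripts in the Bmp2 difference was not tested. In this class 10.7% of genes were called higher and 15.6% lower.

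Bmp4, a ligand that acts on endothelium and smooth muscle, was highest in endothelial-like cells. They held 337 CPM in WT (294 to 384, 223 UMIs in 120 cells) against 276 CPM in Gsdme-KO (245 to 310, 288 UMIs in 163 cells), and 30% and 28.2% of the cells had a UMI, against 0.753% and 0 of 1041 cells (a count that allows up to 0.288%) in macrophage cluster 11. Mesothelial-like cells followed at 121 and 100 CPM, SMC-like cells at 57.2 and 65.8 CPM, lymphatic endothelial-like cells at 0 and 55.1 CPM (25 and 32 cells) and fibroblast cluster 0 at 25.3 and 17.0 CPM, while fibroblast cluster 1 held 2.18 and 1.33 CPM. The endothelial level was clear of the next class in both libraries, but neighbours further down the order had overlapping intervals. The ratio in endothelial-like cells was 0.820 (0.686 to 0.981). In fibroblast cluster 0 it was 0.671 (0.532 to 0.847), just short of the fold, with 12.7% and 10.8% of cells positive; it was 1.06 after thinning and 1.05 at Leiden resolution 2. The annotated span of Bmp4 overlaps Gm15217 and Gm15222 on the other strand, and no source used here says whether the counting used strand.

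Bmp6, which in the liver sets hepcidin and in vessels is made by endothelium, shared the endothelial peak and had a second site. Endothelial-like cells held 178 CPM in WT against 145 CPM in Gsdme-KO, giving a ratio of 0.812 (0.634 to 1.04). Fibroblast cluster 1 held 61.2 and 59.6 CPM, a ratio of 0.973 (0.825 to 1.15), with 31.4% and 34.0% of cells positive. Fibroblast cluster 0 held 6.00 and 6.92 CPM, so cluster 1 lay above cluster 0 in each library and their intervals did not overlap. No difference between libraries was detectable for Bmp6 in either fibroblast cluster at this depth. The annotation of Bmp6 overlaps Txndc5 and 4930579J19Rik on the other strand.

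Bmp3 and Gdf10, a closely related pair of ligands, split the fibroblasts. Bmp3, known as an atypical BMP that opposes osteogenic BMPs, held 196 CPM in cluster 1 in WT (182 to 211) and 239 CPM in Gsdme-KO (227 to 251), against 8.90 and 9.22 CPM in cluster 0. Gdf10, also called BMP3B, held 421 CPM in cluster 0 in WT (404 to 439) and 323 CPM in Gsdme-KO (313 to 334), against 61.5 and 19.2 CPM in cluster 1. The clusters were thus ordered oppositely by these genes in both libraries, though neither gene was used to form them. Bmp3 UMIs were seen in 47.9% and 62.3% of cluster 1 cells and 4.0% and 4.97% of cluster 0 cells. Gdf10 UMIs were seen in 71.5% and 61.2% of cluster 0 cells and 24.7% and 12.5% of cluster 1 cells. The median depth was alike in these clusters (8304 and 10314 UMIs in cluster 0, 8979 and 9884 in cluster 1), and in macrophage cluster 11 the shares were 0.151% and 0.672% for Bmp3 and 1.81% and 1.54% for Gdf10.

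The pair also met in few single cells. Over both clusters 4.31% of 951 WT cells and 4.39% of 1503 Gsdme-KO cells held UMIs of Bmp3 and Gdf10 together, where the product of the separate shares was 11.3% and 11.8%. Within cluster 0 the shared cells (2.78% and 3.05%) were near that product (2.86% and 3.04%). Within cluster 1 they were 6.65% of WT cells against a product of 11.8%, and 6.31% of Gsdme-KO cells against 7.76%. Bmp3 and Bmp6 overlapped instead, with 19.1% and 25.9% of cluster 1 cells holding both against products of 15% and 21.2%. These shares are descriptions of sparse counts and depend on depth.

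Between libraries, Gdf10 in fibroblast cluster 1 gave the lowest ratio of any of the 10 genes in the fibroblast clusters. It stood at 61.5 CPM in WT (53.7 to 70.1, 226 UMIs) against 19.2 CPM in Gsdme-KO (16 to 22.8, 130 UMIs), giving a ratio of 0.312 (0.249 to 0.389), and it kept the call under all alternatives tried, from 0.231 after thinning to 0.392 at Leiden resolution 2. In cluster 0 the Gdf10 ratio was 0.768 (0.727 to 0.811), in the same direction and under the fold. The Bmp3 ratio in cluster 1 was 1.22 (1.11 to 1.33) and in cluster 0 1.04 (0.722 to 1.51). In cluster 1 the share of cells with a Gdf10 UMI was also lower in Gsdme-KO, and it was 6.93% and 1.46% after thinning.

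**Figure D2:**
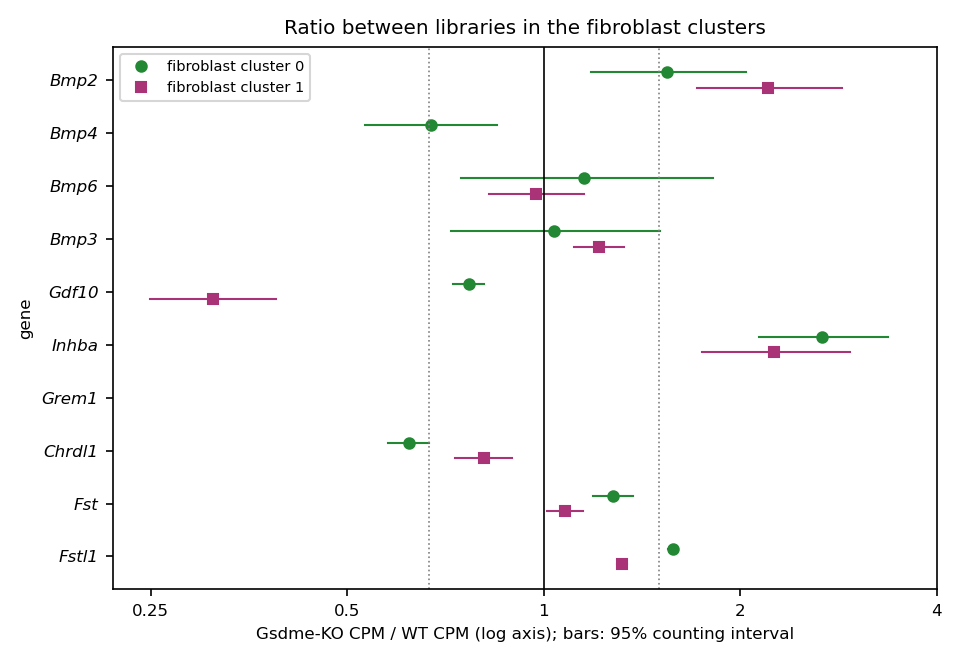
Ratio of Gsdme-KO to WT CPM (log axis) for each gene in fibroblast clusters 0 (circles) and 1 (squares), with 95% counting intervals as bars, a solid line at 1 and dotted lines at the 1.5-fold either way; genes under the floors are left blank. Inhba lies right of the upper dotted line in both clusters (2.67 and 2.26), and Gdf10 in cluster 1 (0.312) lies farthest to the left.

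Inhba encodes the beta A subunit whose dimer is activin A, a ligand that signals through SMAD2 and SMAD3. Its level was highest in cluster 23, a small unnamed cluster led by Slc18a2, Gata2 and Mreg. This cluster held 663 CPM in WT (569 to 769, 175 UMIs in 171 cells) against 1142 CPM in Gsdme-KO (948 to 1364, 122 UMIs in 77 cells). The ratio was 1.72 (1.36 to 2.18), where 14.9% of 2262 genes were called higher and 17.6% lower. For the share of positive cells the Gsdme-KO to WT ratio was 0.919. No alternative was run for ratios of unnamed clusters. SMC-like cells held 345 and 298 CPM, monocyte-like cells 362 and 102 CPM, neutrophil cluster 5 304 and 142 CPM and neutrophil cluster 7 105 and 208 CPM. SMC-like cells had the broadest detection, with 40.3% and 37.7% of cells positive, against 0 of 316 WT T cell-like cells (which allows up to 0.949%) and 0.697% of those in Gsdme-KO, at medians of 3275 and 3501 UMIs in SMC-like and 2711 and 2644 UMIs in T cell-like cells. In myeloid cells, detection was rarer and UMIs were stacked in few cells.

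In fibroblasts, Inhba was higher in the Gsdme-KO library in both clusters. Cluster 0 held 17.8 CPM in WT (14.4 to 21.8) and 47.5 CPM in Gsdme-KO (43.4 to 51.9), giving a ratio of 2.67 (2.13 to 3.37). Of its 495 UMIs in Gsdme-KO, 241 came from 1 cell. Without the cell with the most UMIs in each library the ratio was 1.58, and without the top 1% of cells it was 1.31, below the fold. The shares of positive cells in cluster 0 were 8.0% (5.92 to 10.5) and 9.60% (7.74 to 11.7), whose intervals overlapped. Cluster 1 held 20.1 and 45.4 CPM, a ratio of 2.26 (1.75 to 2.95), with 5.59% and 10% of cells positive. There the ratio was 2.61 without the top cell and 3.47 without the top 1%, and 1.53 at Leiden resolution 2, so the difference in cluster 1 did not rest on 1 cell.

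In monocyte-like cells the ratio ran the other way, at 0.283 (0.243 to 0.329). Positive cells were as frequent in both libraries, at 14% in WT (10.5 to 18.1) and 14.7% in Gsdme-KO (11.4 to 18.4), while a positive cell held 12.5 UMIs in WT and 3.84 in Gsdme-KO. The highest cell held 190 of the 611 WT UMIs and 21 of the 242 in Gsdme-KO. Without the top cell the ratio was 0.376, and without the top 1% it was 0.460. When the pathway genes were kept among the clustering genes it was 0.551. Monocyte-like cells had 1 of 3 measured genes called higher and 1 called lower, where 8.37% and 8.91% of 7970 genes were called. The gene called higher was Fst (5.33 and 11.4 CPM from 9 and 27 UMIs), with an interval that held 1 (0.978 to 5.18).

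The neutrophil clusters went in opposite directions. Neutrophil cluster 5, led by Rdh12, S100a9 and S100a8, gave 0.466 (0.352 to 0.613), and neutrophil cluster 7, led by Il23a, Il1r2 and Mmp9, gave 1.98 (1.64 to 2.41). Taken as 1 class they gave 1.26 (1.08 to 1.46), under the fold, where 7.62% of genes were called higher and 8.49% lower. Genes called higher and lower made up 10.3% and 11.4% of 3739 genes in cluster 5 and 8.43% and 7.73% of 7047 genes in cluster 7. The cluster 7 ratio was 1.12 at Leiden resolution 0.5 and 1.45 with the pathway genes kept for clustering, so it depended on how the cells were divided. Of the macrophage clusters, Inhba was called higher in cluster 13 (6.81 and 35.3 CPM from 7 and 39 UMIs, ratio 5.19, 2.29 to 13.7) and cluster 10 (61.5 and 96.9 CPM, ratio 1.58, 1.15 to 2.17) and lower in cluster 9 (15 and 8.21 CPM, ratio 0.547, 0.371 to 0.789). In cluster 13 a single Gsdme-KO cell held 20 of the 39 UMIs, and the ratio was 3.58 without the top cells. In cluster 10 it was 1.26 at Leiden resolution 2 and 1.42 without the top 1% of cells. In cluster 9, 3.61% and 3.62% of cells were positive, and the ratio lost the call without the top cells (0.750; 1 WT cell held 52 of the 124 UMIs), without the top 1% (0.940), at Leiden resolution 0.5 (0.903) and as a mean over cells (0.948). In cluster 13 8.26% of genes were called higher and 13.3% lower, and in cluster 9 3.15% and 3.87%. In macrophage cluster 3 (90.9 and 83.6 CPM), endothelial-like cells (98.2 and 79.6 CPM) and SMC-like cells (ratio 0.862, 0.705 to 1.06) Inhba was not called. Inhba overlaps Gm48444 on the other strand.

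**Figure D3:**
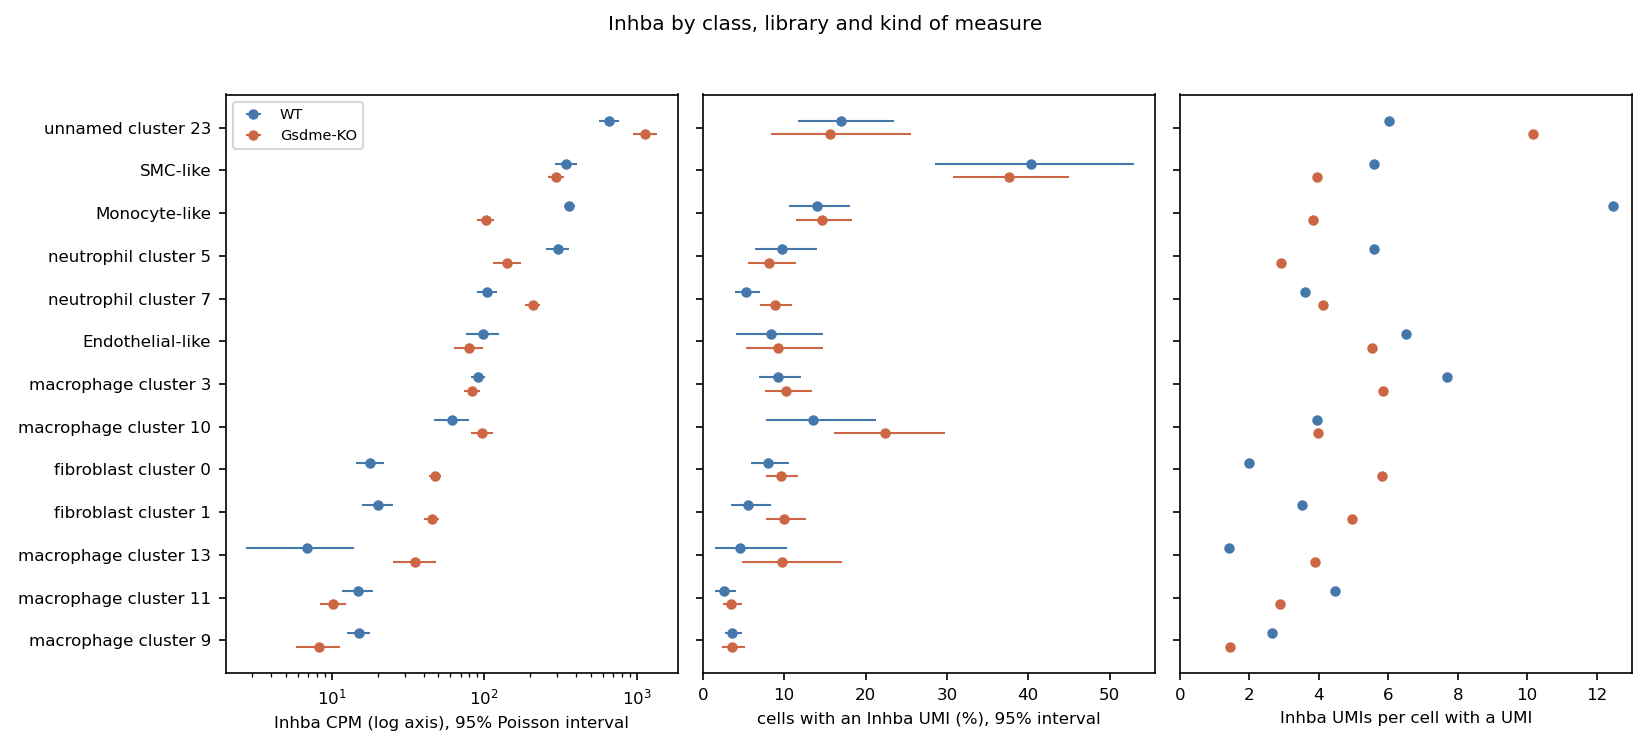
Inhba in 13 classes and clusters for the WT (blue) and Gsdme-KO (orange) libraries: CPM on a log axis with Poisson intervals (left), percent of cells with a UMI with exact binomial intervals (middle), and UMIs per positive cell (right). In monocyte-like cells the libraries differ in the left panel (362 and 102 CPM) and the right panel (12.5 and 3.84 UMIs), while their intervals overlap in the middle panel (14% and 14.7%).

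Of the antagonists, Grem1, which binds BMP2 and BMP4, was nearly undetected. It had 35 UMIs in 17 of 7619 WT cells (0.900 CPM) and 32 UMIs in 15 of 8783 Gsdme-KO cells (0.613 CPM), and passed the floors in none of the 16 classes and clusters compared. Fibroblast cluster 0 held 12 UMIs in each library. Endothelial-like cells held 0 UMIs in 120 WT cells, which allows up to 2.50% of cells with a UMI, and 8 in Gsdme-KO, 7 of them in 1 cell.

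Chrdl1, a chordin-like antagonist of BMP4, was a gene of mesothelial-like cells (266 and 320 CPM) and of both fibroblast clusters. Cluster 0 held 262 CPM in WT (248 to 276) and 163 CPM in Gsdme-KO (155 to 170), giving a ratio of 0.621 (0.578 to 0.668). Cluster 1 held 181 and 146 CPM, a ratio of 0.809 (0.732 to 0.894). The shares of positive cells differed less, at 37.6% and 35.4% in cluster 0 and 45.2% and 39.6% in cluster 1, against 1.51% and 1.44% in macrophage cluster 11. The cluster 0 call did not hold with TMM factors (0.700), size factors (0.697), Leiden resolution 2 (0.833), the pathway genes kept for clustering (0.685), the mean over cells (0.845) or thinning (0.877), and the ratio stayed below 1 in each of these. Chrdl1 UMIs were seen in 42.3% and 41.3% of cluster 0 cells that held Gdf10 and in 25.6% and 25.9% of those that did not. In cluster 1 the shares were 43.0% and 48.1% of cells with Gdf10 and 45.9% and 38.4% of those without.

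Fst encodes follistatin, the main extracellular inhibitor of activin. It was highest in fibroblast cluster 1, at 395 CPM in WT (375 to 416) and 426 CPM in Gsdme-KO (411 to 442), followed by cluster 0 at 218 and 278 CPM. Positive cells made up 73.1% and 67.8% of cluster 1 and 51.0% and 54.4% of cluster 0, against 1.2% and 2.31% in macrophage cluster 11. The ratio was 1.08 (1.01 to 1.15) in cluster 1 and 1.28 (1.19 to 1.37) in cluster 0. After thinning these were 0.799 and 0.987, so no direction is given for Fst in fibroblasts. Among Gsdme-KO fibroblasts that held Inhba, 81.0% held Fst, against 57.6% of those that did not. In WT these shares were both 59.7%. By cluster, the WT shares were 50% and 51.0% in cluster 0 and 81.0% and 72.7% in cluster 1. Those of Gsdme-KO were 75.3% and 52.1% in cluster 0 and 88.7% and 65.5% in cluster 1. Thinned, the shares over both clusters were 35.5% and 17.3% in Gsdme-KO and 15.4% and 22.8% in WT. The first of each thinned pair came from 31 and 13 cells.

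In endothelial-like cells Fst stood at 213 CPM in WT (179 to 251, 141 UMIs) against 54.7 CPM in Gsdme-KO (41.4 to 70.8, 57 UMIs), giving a ratio of 0.257 (0.185 to 0.351). This was the only call among the 6 of the 10 genes measured in that class, where 8.0% of 7409 genes were called higher and 11.2% lower. Positive cells were 12.5% in WT (7.17 to 19.8) and 14.1% in Gsdme-KO (9.16 to 20.4), that is 15 and 23 cells, and a positive cell held 9.40 and 2.48 UMIs. The highest WT cell held 47 UMIs and the ratio without the top cells was 0.311, but as a mean over cells it was 0.722 and no longer called. Fst overlaps Gm47040 on the other strand.

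Fstl1, a secreted glycoprotein related to follistatin and SPARC that is reported to modulate BMP4 signalling, was seen in nearly every fibroblast. Cluster 1 held 5575 CPM in WT (5499 to 5652) and 7346 CPM in Gsdme-KO (7282 to 7411), and cluster 0 held 3205 CPM (3156 to 3254) and 5057 CPM (5014 to 5100). The ratio was 1.32 (1.30 to 1.34) in cluster 1 and 1.58 (1.55 to 1.61) in cluster 0. It kept its direction in all alternatives tried, between 1.29 and 1.45 in cluster 1 and between 1.42 and 1.78 in cluster 0, where it dropped under the fold at Leiden resolution 0.5 (1.42) and with the pathway genes kept for clustering (1.46). A positive cell of cluster 0 held 29.0 UMIs in WT and 60.1 in Gsdme-KO, at median depths of 8304 and 10314 UMIs per cell. SMC-like cells held 3124 and 2650 CPM, a ratio of 0.848 (0.794 to 0.907), below 1 but not called. In fibroblasts the ratio was above 1 in both clusters and called in cluster 0 only. In SMC-like cells the median fibroblast marker stood at 26.9% and 22.6% of its level in the fibroblast clusters. The highest marker there stood at 182% and 108%, and Fstl1 at 74.6% and 44.5%. The part of fibroblast transcripts in the SMC-like ratio was not tested, nor was the difference between fibroblasts and SMC-like cells. Over all kept cells the ratio of Fstl1 was 2.05 (2.03 to 2.07), while 12.5% of WT cells and 17.1% of Gsdme-KO cells lay in the fibroblast clusters.

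Fibroblast markers were also counted at a low level in immune cells, which gives a background for genes made by fibroblasts. In the 11 macrophage, monocyte, neutrophil, dendritic and lymphocyte groups the median of 11 fibroblast markers lay between 0.634% and 2.40% of its level in the fibroblast clusters. Fstl1 lay between 0.802% and 2.53%, and 26.8% and 37.9% of macrophage cluster 11 cells had a Fstl1 UMI. The called Fstl1 ratios in dendritic-like cells (2.38, 1.81 to 3.15), B cell-like cells (2.11, 1.46 to 3.09) and platelet-like cells (2.23, 1.64 to 3.05) are given beside the same markers. In dendritic-like cells the marker median was 1.01% of its fibroblast level in WT and 2.40% in Gsdme-KO, and Fstl1 stood at 1.33% and 2.23%. In B cell-like cells the marker median was 1.17% and 1.44% and Fstl1 1.71% and 2.53%, and in platelet-like cells the marker median was 5.45% and 5.40% and Fstl1 3.62% and 5.69%. The marker median was thus higher in Gsdme-KO in dendritic-like cells, differed less in B cell-like cells and was nearly level in platelet-like cells. In platelet-like cells the markers ranged from 2.67% to 7.63% in WT and from 3.83% to 13.7% in Gsdme-KO, and Fstl1 lay within both ranges. The part of the markers' background in the Fstl1 ratios was not tested. In B cell-like cells the ratio was 1.36, under the fold, with at most 10% mitochondrial UMIs. Genes called higher and lower were 8.23% and 9.56% in dendritic-like and 10.1% and 13.3% in platelet-like cells. Endothelial-like Fstl1 (979 and 1136 CPM) stood at 23.4% and 19.1% of the fibroblast level, above the 7.98% and 7.05% of the highest marker.

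**Figure D4:**
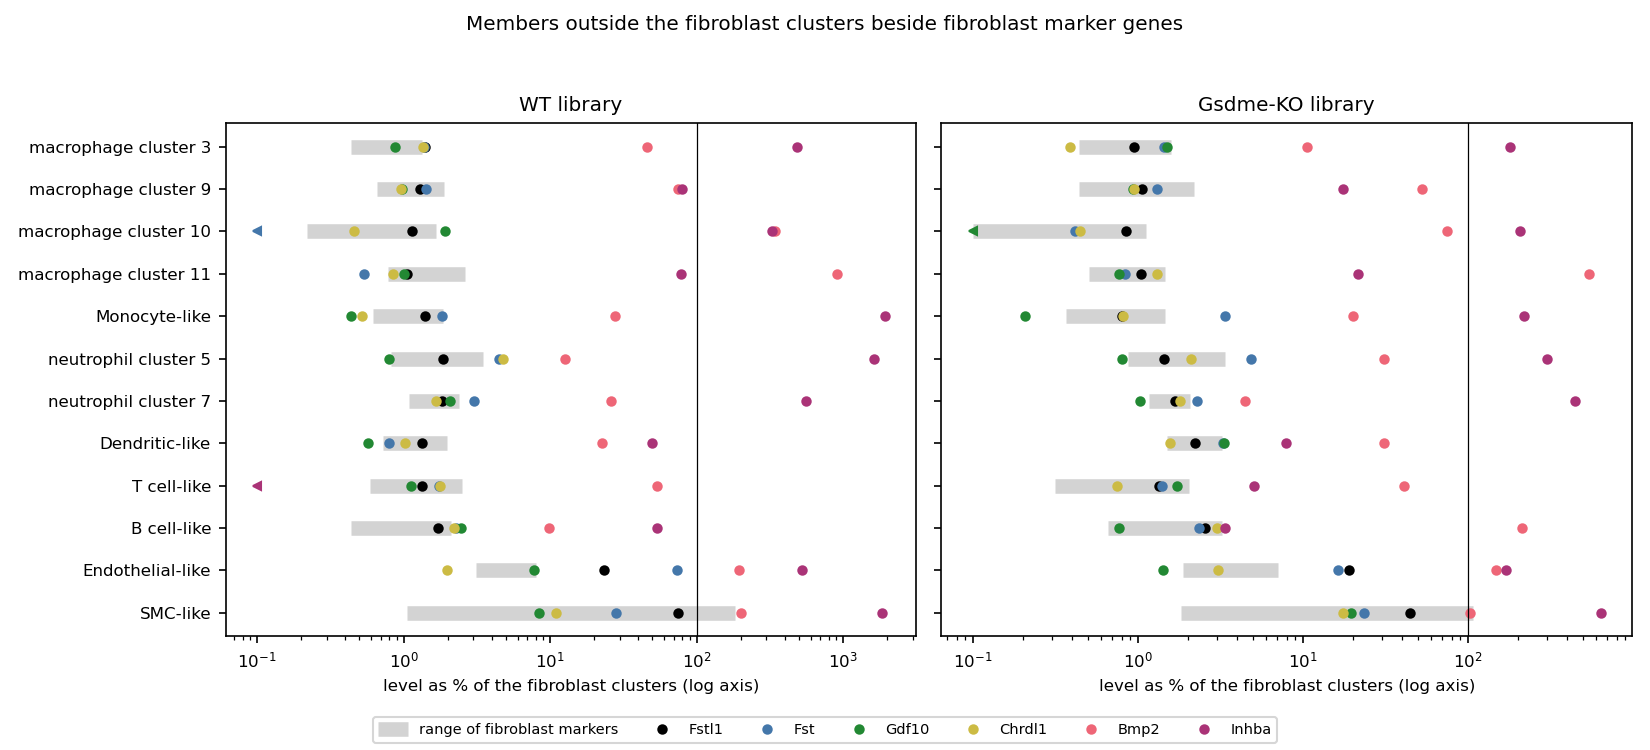
Level of 6 of the genes in other cell classes as a percent of their level in the fibroblast clusters (log axis), WT left and Gsdme-KO right; grey bars span the lowest to the highest of 11 fibroblast markers, the line marks 100% and triangles at the left edge stand for 0. Fstl1 lies within or beside the grey bar in the immune classes, while Bmp2 of macrophage cluster 11 lies at 904% and 545% and Inhba of monocyte-like cells at 1928% and 219%.

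Bmp2 in fibroblasts was set against macrophage transcripts in the same way. Cluster 0 held 14.1 CPM in WT (11.1 to 17.8) and 21.8 CPM in Gsdme-KO (19.1 to 24.8), giving a ratio of 1.54 (1.18 to 2.04), and cluster 1 held 21.2 CPM (16.8 to 26.5) and 46.8 CPM (41.7 to 52.2), a ratio of 2.20 (1.71 to 2.86). The shares of positive cells were 5.22% and 11.2% in cluster 0 and 12.8% and 18.6% in cluster 1. The median macrophage marker in cluster 0 stood at 4.02% of its macrophage cluster 11 level in WT and 2.07% in Gsdme-KO. The highest marker there stood at 13.1% and 6.96%. Bmp2 stood at 9.16% and 12.6%, so in WT it lay within the range of the markers. In cluster 1 the median marker stood at 4.83% and 2.31%, the highest at 9.95% and 5.1%, and Bmp2 at 13.8% and 27.1%. The macrophage marker level was lower in the library where Bmp2 was higher, and the part of macrophage transcripts in the Bmp2 difference was not tested. The ratio was 1.32 in cluster 0 at Leiden resolution 2 and 1.36 with the pathway genes kept for clustering, both under the fold, and 1.22 in cluster 1 after thinning. In cluster 0 thinning gave 6.18, with a Bmp2 UMI left in 2 WT and 19 Gsdme-KO cells.

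Counted over the list, fibroblast cluster 0 had 3 of 9 measured genes called higher in Gsdme-KO (Inhba, Fstl1, Bmp2) and 1 called lower (Chrdl1), where 4.26% of 9963 genes were called higher and 11.5% lower. Cluster 1 had 2 of 8 called higher (Inhba, Bmp2) and 1 lower (Gdf10), where 3.82% of 9937 genes were called higher and 10.8% lower. With both clusters together 2 of 9 were called higher (Inhba 2.49, Bmp2 1.85) and 0 lower, against 3.20% and 9.23% of 10032 genes. The median ratio of the 9 genes was 1.15, and that of all genes was 0.915. TMM factors and size factors each shifted every log2 ratio of the clusters together by 0.17. With TMM factors 6.61% of all genes were called higher and 5.40% lower, and 3 of the 9 genes higher and 0 lower, Fstl1 being added at 1.60. Bmp6 turned from 0.956 to above 1 with both scalings.

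The other 89 genes of the pathway, in 6 lists, are set beside all genes. With both fibroblast clusters together 48 passed the floors, and 3 were called higher and 3 lower, against 3.20% and 9.23% of all genes. With TMM factors as with size factors these counts were 7 and 1. The shares of all genes were then 6.61% and 5.40% with TMM factors and 6.50% and 5.43% with size factors. The 3 called higher by CPM were the target genes Id3 (291 and 440 CPM, ratio 1.51) and Atoh8 (1.89) and the extracellular modulator gene Vwc2 (2.07). Those lower were Gdf15, a stress-induced member of the superfamily (23 and 8.26 CPM, ratio 0.360), Neo1, which encodes a co-receptor for repulsive guidance molecules (0.647), and Kcp, which encodes a chordin-like modulator (0.661). By list, 2 of 8 BMP target genes were called higher and 0 lower, and 0 of 12 receptors higher and 1 lower. None of 9 SMAD and SMAD ubiquitin ligase genes was called either way, nor any of 4 convertases. Medians were 1.23 for the targets, 0.820 for the receptors, 0.929 for the SMAD list and 0.915 for all genes.

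The BMP targets did not move as 1 group. Id3, an inhibitor of basic helix-loop-helix factors that BMP signalling induces, gave 1.48 in cluster 0 (323 and 477 CPM) and 1.55 in cluster 1 (247 and 384 CPM). Id1 gave 1.60 in cluster 0 (8.51 and 13.6 CPM) and 0.943 in cluster 1 (6.26 and 5.90 CPM), and Tnfrsf11b, which encodes osteoprotegerin, gave 1.8 and 1.15. Id2 and Id4 stood at 0.747 and 0.704 in cluster 0. Outside fibroblasts Id3 was called higher in macrophage cluster 11 (50.9 and 78.5 CPM, 1.54), macrophage cluster 10 (29.2 and 75.3 CPM, 2.58) and dendritic-like cells (43.4 and 92.9 CPM, 2.14), and it stood at 1.25 in endothelial-like and 1.35 in SMC-like cells. In macrophage cluster 11, 2.96% of 9182 genes were called higher and 4.33% lower.

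Receptors and co-receptors had 2 of 13 measured genes called lower in cluster 0 and 1 of 12 in cluster 1, with 0 higher, which is near the share of all genes called lower there (11.5% and 10.8%). Their median ratios were 0.819 and 0.833, beside 0.915 and 0.921 for all genes. In cluster 0 the type II activin receptor Acvr2a stood at 85.7 and 56.5 CPM (0.659) and Neo1 at 46.2 and 29.1 CPM (0.629). In cluster 1 the endothelial co-receptor gene Eng stood at 21.8 and 12.4 CPM (0.569). The BMP receptors Bmpr1a (0.948 and 0.971) and Bmpr2 (0.910 and 0.821) were not called in either cluster, nor was the inhibitory SMAD gene Smad7 (1.45 and 1.28), which is a feedback target of the pathway.

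In SMC-like cells 7 of the 10 genes were measured and 1 was called, Gdf10 at 22.9 and 39.7 CPM from 10 and 38 UMIs (1.74, 0.849 to 3.91), an interval that holds 1. Of 6030 genes in that class 13.4% were called higher and 11.7% lower. Of the pathway genes Sost, which encodes the WNT and BMP antagonist sclerostin, stood at 64.0 and 318 CPM (4.96, 3.36 to 7.59), and Crim1, which encodes a membrane-bound BMP modulator, at 622 and 365 CPM (0.586, 0.499 to 0.689). The class held 67 WT and 191 Gsdme-KO cells, and Sost was among its leading genes. In endothelial-like cells Gdf6 was higher (9.06 and 30.7 CPM from 6 and 32 UMIs, 3.39) and the tolloid-like protease gene Tll1 lower (72.5 and 37.4 CPM, 0.516). Gdf15 was also called lower in, among others, endothelial-like cells (0.527), monocyte-like cells (0.457) and macrophage clusters 3 (214.7 and 92.5 CPM, 0.431) and 9 (305.2 and 160.6 CPM, 0.526). In cluster 23 Gdf15 was called higher (45.5 and 206 CPM from 12 and 22 UMIs, 4.53, 2.15 to 10.04). Gdf3 was called higher in macrophage clusters 3 (6.75) and 9 (3.39) and in monocyte-like cells (3.37).

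Likeness was measured as Pearson's r of log2(CPM + 1) over 46 profiles, each a cluster of at least 50 cells in 1 library, among 11256 genes. The profiles share libraries and carried-over transcripts, so r is a description. Fstl1 was most like Fbln2 (0.976), Lox (0.975) and Col5a1 (0.973), and Fst was most like Prss23 (0.927), Fstl1 (0.925) and Fbn1 (0.924). Gdf10 was most like Sfrp1 (0.900) and Mfap4 (0.889), Chrdl1 most like Gas1 (0.921) and C1s1 (0.921), and Bmp3 most like Htra3 (0.868). Bmp4 was most like Zfp979 (0.882) and Spry4 (0.871) and Bmp6 most like Arhgef28 (0.819) and Ephb4 (0.814). Bmp2 and Inhba had looser partners. Rcn3 (0.696) and Lyve1 (0.683) were among the genes most like Bmp2, and Inhba was most like Thbs1 (0.713), Tmem38b (0.703) and P4ha1 (0.657). Between them the r of Bmp2 and Inhba was -0.21.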

How the data were processed

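Per the labels' protocols, cells from digested aorta were prepared with the BD Rhapsody system. The deposited files hold whole-number counts per gene and barcode, which were not normalised. They are read here as UMI counts, as the platform gives, although no label says so. CASAVA 1.8, STARsolo and the mm10 build appear in the submitters' processing notes without roles, and neither annotation nor strand setting is given in the sources used here. No barcode had a total below 500.

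Barcodes needed 500 UMIs or more, 250 genes or more and no more than 25% mitochondrial UMIs. Scrublet marked 0 WT and 1 Gsdme-KO cells, so it did not work and doublets remain. Clusters came from scanpy 1.11.5 (2000 variable genes without the pathway genes, 30 components, 15 neighbours, Leiden resolution 1). A name needed at least 3 markers in at least 25% of cells. Clusters that had a median depth under 0.3333 of their libraries' and no such marker leading stayed unnamed, among them cluster 20 (210 and 387 cells), which expressed fibroblast genes. Names were rebuilt here from 19 marker lists, and no cell annotation of the authors was used.

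Counts were summed per class and library. CPM carry exact Poisson intervals, ratios exact conditional binomial intervals and shares exact Clopper-Pearson intervals, all at 95%. No test was run, as each group held 1 library. UMIs of 1 cell are not independent, so intervals are too narrow where few cells hold them. Ratios needed 50 cells in each library. Intervals were tried only on simulated counts drawn from the counting model they assume, which cannot show how they behave where few cells hold the UMIs. All 10 genes are named, with those pathway genes past the fold whose interval leaves out 1, at most 6 each way per class, besides genes named for their role after their values were seen. The genes and lists were chosen with earlier results of these data known. Alternatives were other filters, resolutions, scalings (TMM in edgeR 4.0.16, size factors in DESeq2 1.42.0), thinning to 1000 UMIs, means over cells, no floors, and leaving out high doublet scores. Leaving out top cells and adding cluster 20 were chosen after seeing the data. Positions and overlaps are from GENCODE M21 (mm10). One of the genes most alike is not reported here.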

Additional observations from a re-analysis of the deposited data

Results flagged for a closer look

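Among the named groups, Bmp2 and Inhba had ratios past the fold, with counting intervals clear of 1, on opposite sides in different cell groups. The difference between groups was not tested for either gene, and the report gives their levels and what moved with them.

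For Bmp2 the Gsdme-KO to WT ratio was above 1 in B cell-like cells (40.6), fibroblast cluster 0 (1.54) and fibroblast cluster 1 (2.20), and below 1 in macrophage cluster 3 (0.428) and macrophage cluster 10 (0.406).

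For Inhba the ratio was above 1 in fibroblast cluster 0 (2.67), fibroblast cluster 1 (2.26), neutrophil cluster 7 (1.98), macrophage cluster 10 (1.58) and macrophage cluster 13 (5.19), and below 1 in monocyte-like cells (0.283), neutrophil cluster 5 (0.466) and macrophage cluster 9 (0.547).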

How the results depend on the processing

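Of 854 alternative values of 74 ratios, 778 kept their direction. Of 315 alternatives of the 28 ratios past the fold, 287 stayed past it. Bmp2 turned direction in macrophage cluster 3 after thinning (1.17) and in macrophage cluster 10 at Leiden resolution 2 (1.14). In the fibroblast clusters together, the count of the 10 genes called lower was 1 at Leiden resolution 0.5, 2 at resolution 2 and 1 with no floors, against 0, and the count called higher stayed within 1.5 times. Of the other pathway genes 3 were called each way, against 3.20% of all genes called higher and 9.23% lower. With TMM factors these shares of all genes were 6.61% and 5.40%, and with size factors 6.50% and 5.43%. Counts of the other pathway genes higher and lower were 1 and 7 after thinning, 7 and 1 with TMM factors, 7 and 1 with size factors, and 9 and 9 with no floors. Fewer genes were measured after thinning (40 in place of 48), and the scalings shifted all ratios upward. The cause of the other changes was not tested. Shares of all genes were not taken after thinning, at the other resolutions or with no floors. The counts under those settings therefore cannot be set against all genes. No paired analysis was possible because each group held 1 library. Depth limits Grem1 throughout, and classes of under 50 cells in a library have no ratio.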
